A study of Equus caballus with 16 samples.

Results

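The comparison described here is that of fetal equine tenocytes carrying a short hairpin RNA against SCX (shSCX) with the same cells carrying a scrambled non-target hairpin (NT). It takes every fetal library of the study, 8 of 16, as 4 pairs, and each pair is a cell line sequenced once with each hairpin. The lines are named by the day of gestation of the fetus, 271d, 316d, 319d and 320d. Lines 271d, 316d and 320d were at passage 7 and 319d was at passage 8, in both libraries of the line. The remaining 8 libraries are lines from adult horses of 2 to 10 years with the same hairpins and serve only for comparison. Adult line TB171012 was at passage 7, TB180412 at passage 5, and TB130911 and S at passage 8. Both hairpins were delivered in a plasmid vector with a puromycin resistance gene, from which stable lines were made in serum-containing medium. The shSCX hairpin was designed against the human transcript and used in horse cells, and a single sequence was used in each arm. The NT libraries therefore share vector and culture with the shSCX libraries, while the particular hairpin sequence cannot be told apart from an effect on its target.

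Tenocytes are the fibroblast-like cells that build and maintain the collagen fibres of tendon. SCX encodes Scleraxis, a basic helix-loop-helix transcription factor that marks tendon progenitors in the embryo and is known to drive tendon matrix genes such as type I collagen and tenomodulin. A short hairpin RNA is cut by the cell into a small interfering RNA that guides the silencing complex to matching transcripts, and a scrambled hairpin loads the same machinery without an intended target. The study asks whether Scleraxis controls different genes in tenocytes of different developmental stages.

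The deposited tables name genes by horse Ensembl identifier and carry no symbols, and 0 of 21689 identifiers matched the gene table used here. The level of SCX itself and the markers of tenocytes and of other cell types were therefore not analysed here, and the hairpin of a library is known from its label alone. Genes are given by identifier, 2 that rose and 2 that fell, and the remainder of the response is described by direction, size, abundance and line. Each library is a measurement of bulk RNA, in which fewer cells of a type and less RNA per cell cannot be told apart.

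Fetal libraries held between 17628146 and 23148013 counts. The shSCX library was deeper than its NT library in line 271d, by 2924329 counts, and shallower in the other 3 lines. Before any test, the libraries were set against each other by the root mean square of their log2 differences over 12418 tested genes. NT and shSCX libraries of the same line differed by 0.59 in 271d, 0.76 in line 316d, 0.48 in 319d and 0.57 in line 320d. Different lines differed by 0.74 ± 0.07 with NT (SD over 6 pairs of libraries) and by 0.67 ± 0.09 with shSCX (SD over 6 pairs of libraries). In 271d, 319d and 320d the library nearest to the shSCX library among the NT libraries was its own. The shSCX library of 316d stood apart, since it lay nearer to the NT library of 271d (0.62) than to its own NT library (0.76), and nearest of all to the shSCX library of 271d (0.55).

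The identity of the lines was looked at through 12 genes that were either nearly silent (2 counts or fewer) or present (30 counts or more) in every fetal library. NT and shSCX libraries of the same line had the same state for 9 of these 12 genes in 271d, 316d and 319d and for 10 in 320d. The shSCX library of 316d matched the NT libraries of the other lines at 6 of 12 genes each, and so was closest to its own. The measure did not separate all lines, since the shSCX library of 319d matched the NT library of 271d at 9 of 12 genes, as often as its own, and that of 316d at 8. The main results are given below with and without 316d.

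With shSCX, 2138 of 12418 genes changed in fetal lines, or 17.2%, with the line as a block (edgeR quasi-likelihood test, adjusted p under 0.05). Of these, 1140 rose (9.18%) and 998 fell (8.04%). The rising changes were the larger ones. The median called change was 0.74 on the log2 scale upward and -0.50 downward. At least 2-fold changes were reached by 344 rising and 115 falling genes, at least 4-fold by 60 and 9, and at least 8-fold by 17 and 0. The split between rising and falling depended on scaling. TMM scaling, used here, holds the bulk of genes level, and 53.3% of calls then rose, whereas scaling by total counts put 75% of 2263 calls upward. The median change of all tested genes was 0.012 with TMM and 0.116 with total counts, on the log2 scale.

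The number of calls depended on the pairing and on the lines included. In a fit that ignored the lines 58 genes were called, 55 of them rising. Without 316d 1732 genes were called, 1008 rising and 724 falling, and 1515 of these are among the 2138. At least 2-fold changes then numbered 308 upward and 113 downward, and at least 4-fold changes 56 and 15. The count was 2221 without 271d, 789 without 319d and 270 without 320d.

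The rule for naming genes took called genes with the same sign in 4 of 4 lines and an average of 500 or more normalised counts in whichever group was higher, in order of the size of change. Normalised counts are counts scaled by TMM to a common library size. The rule was met by 646 rising genes, 129 of them at least 2-fold, and by 697 falling genes, 31 of them at least 2-fold. The tenth gene in this order had a log2 fold change of 2.49 upward and -1.42 downward. The 4 genes named are thus the far ends of each direction and not typical members. Their deposited values were whole numbers in all 8 fetal libraries.

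Among genes that met the rule, the largest rise was that of ENSECAG00000000750. Its NT libraries held 28.7 normalised counts in 271d, 6.0 in line 316d, 198.1 in 319d and 4.5 in line 320d. With shSCX it held 2036.4 in 271d, 1766.6 in line 316d, 4361.1 in 319d and 226.5 in line 320d. All 4 shSCX libraries lay above all 4 NT libraries, a pattern shown in this direction by 488 of the 12418 genes (3.93%). The gene was close to silent in 316d and 320d with NT, at 6 and 4 raw counts, so the fold there rests on few counts. The fitted log2 fold change was 5.64 (SE 0.47, 95% interval 4.53 to 6.76, edgeR adjusted p = 0.00206) and the log2 ratios of the lines averaged 5.86 ± 1.45 (SD, n = 4). The fitted value was 5.08 without 316d and 6.70 without 319d, and leaving out 319d moved the fold by more than 1.5 times.

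ENSECAG00000023733 rose from a higher NT level than ENSECAG00000000750 in every fetal line. Its NT libraries held 1863.9 normalised counts in 271d, 434.4 in line 316d, 5128.1 in 319d and 179.9 in line 320d, and its shSCX libraries held 40744.3, 14862.7, 51175.8 and 5022.5 in the same order. Within each line the rise was between 3.32 (319d) and 5.09 (316d) on the log2 scale. Across lines the groups overlapped narrowly, because the NT library of 319d lay above the shSCX library of 320d. The fitted log2 fold change was 4.40 (SE 0.30, 95% interval 3.69 to 5.10, edgeR adjusted p = 0.00134), or 21.1-fold, and it was 4.15 without 316d. In its highest library the gene took 0.269% of all counts.

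Both rising genes kept the same order of lines. With NT and with shSCX alike, 319d was highest, followed by 271d, 316d and 320d. In adult libraries, too, both genes had a common order with either hairpin, with line TB171012 highest, then S, TB130911 and TB180412. The level with NT and the level with shSCX were thus ranked alike over the lines for this pair of genes, which was noticed after their values were seen.

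**Figure D1:**
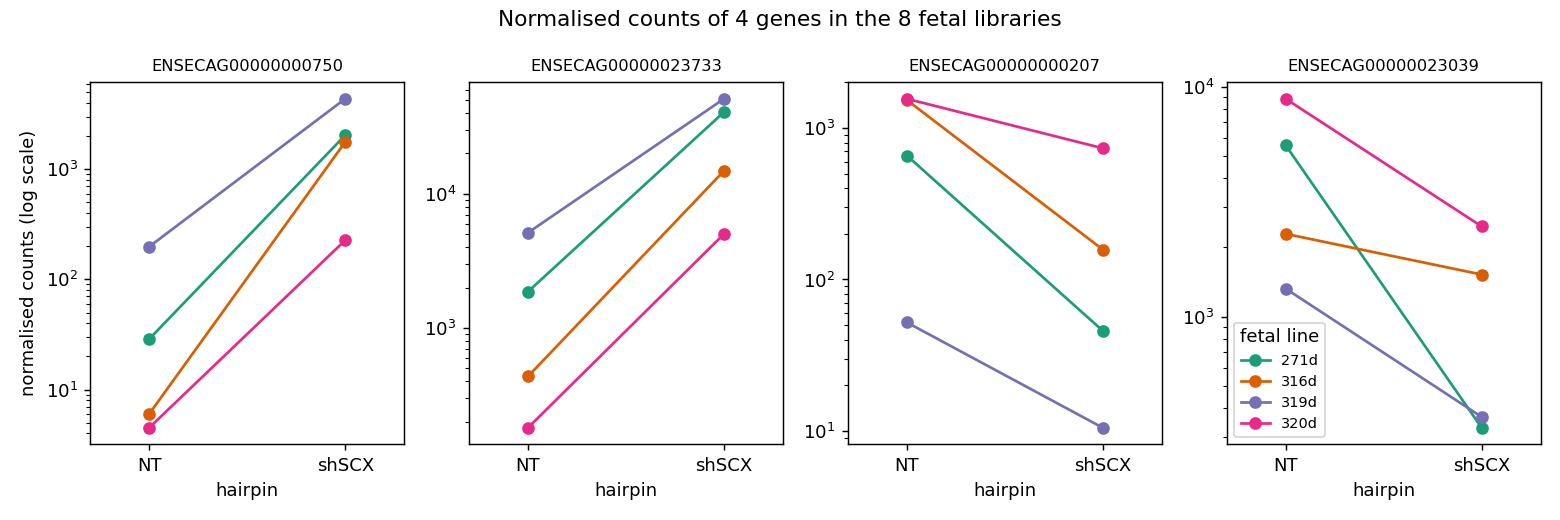
Normalised counts (log axis) of the 4 named genes in the NT and shSCX library of each fetal line, with a line joining the libraries of a pair and no averaging. ENSECAG00000000750 and ENSECAG00000023733 rise in 4 of 4 lines without their lines crossing, and ENSECAG00000023039 falls steeply in 271d and little in 316d.

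Of the falling genes, ENSECAG00000000207 had the largest change. Its NT libraries held 657.9 normalised counts in 271d, 1530.5 in line 316d, 52.1 in 319d and 1558.3 in line 320d, and its shSCX libraries held 45.8, 157.5, 10.5 and 734.6 in the same order. It fell in each line, but by unequal amounts, from -3.79 in 271d to -1.08 in 320d on the log2 scale, and the NT library of 319d was lower than the shSCX libraries of 316d and 320d. Groups with every shSCX library below every NT library were seen for 303 genes (2.44%). The fitted log2 fold change was -2.61 (SE 0.46, 95% interval -3.68 to -1.54, edgeR adjusted p = 0.0134). It was -2.20 without 316d and -3.35 without 320d.

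ENSECAG00000023039 went from 5564.0 to 329.3 normalised counts in 271d, from 2292.3 to 1525.6 in 316d, from 1325.5 to 367.1 in 319d and from 8855.3 to 2469.6 in 320d. The groups overlapped, since the shSCX libraries of 316d and 320d lay above the NT library of 319d. The fall was largest in 271d (-4.07 on the log2 scale) and smallest in 316d (-0.59). The fitted log2 fold change was -2.04 (SE 0.50, 95% interval -3.21 to -0.86, edgeR adjusted p = 0.0348). It was -2.55 without 316d and -1.44 without 271d. Its call was lost without 319d (edgeR adjusted p = 0.0930) and without 320d (edgeR adjusted p = 0.119), and over all alternatives its adjusted p reached 0.357. The other 3 named genes lost their call only in the fit without the block.

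How counts were spread over genes moved with the hairpin in the same direction in every fetal line, in measures that need no scaling between libraries. The 10 most abundant genes of a library took 18.1% of its counts with NT and 14.3% with shSCX in 271d, 15.6% and 13.6% in 316d, 17.0% and 14.7% in 319d, and 17.4% and 16.6% in line 320d. The change was -2.19 percentage points ± 1.28 (SD, n = 4). The effective number of genes, the exponential of the Shannon entropy of the counts, is low when a few genes dominate. It went from 1570 to 2001 in 271d, from 1625 to 2117 in line 316d, from 1610 to 1900 in 319d and from 1389 to 1490 in line 320d, a mean rise of 329 ± 174 (SD, n = 4).

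More genes were also detected. After reducing every library to the depth of the shallowest, NT libraries had 12131 ± 81.3 genes with 10 or more counts and shSCX libraries 12345 ± 78.0 (SD, n = 4), a difference of 214 ± 90.8 (SD, n = 4) that was positive in 4 of 4 lines. At full depth the gain was from 12366 to 12692 genes in 271d, from 12185 to 12463 in line 316d, from 12332 to 12436 in 319d and from 12239 to 12258 in line 320d. In an exact sign-flip permutation test each of the 3 measures gave a two-sided p = 0.125, the smallest that 4 pairs allow, and a Benjamini-Hochberg adjusted 0.125 over the 3. No such measure could therefore pass the threshold here. Without 316d the differences between shSCX and NT were -2.28 ± 1.55 percentage points for the 10 most abundant genes, 274 ± 166 for the effective number of genes and 173 ± 46.1 for genes detected at equal depth (SD, n = 3).

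In adult lines the same measures moved both ways. The genes detected at equal depth rose in 2 and fell in 2 lines, the share of the 10 most abundant genes rose in 3 and fell in 1, and the effective number of genes rose in 1 and fell in 3. The stages were compared by the exact permutation test over 4 fetal and 4 adult line differences (two-sided). The exact p was 0.0571 for genes detected (difference fetal minus adult 186), 0.0571 for the effective number of genes (294) and 0.114 for the share of the 10 most abundant genes (-1.76 percentage points). The Benjamini-Hochberg adjusted values over these 3 measures were 0.0857, 0.0857 and 0.114, so no difference between stages passed the threshold.

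**Figure D2:**
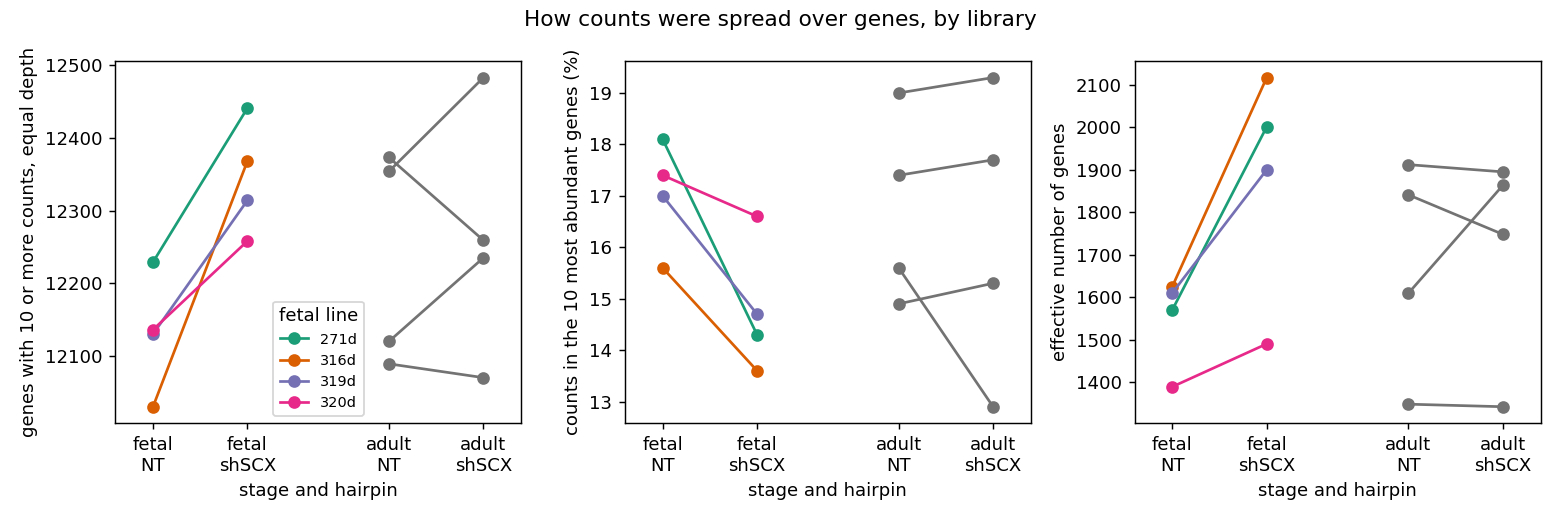
Genes with 10 or more counts after reduction to equal depth, the percentage of counts in the 10 most abundant genes and the effective number of genes, for each library, with lines joining the NT and shSCX library of a line (fetal lines in colour, adult lines in grey). All 4 fetal lines go up, down and up from NT to shSCX in the 3 panels, while adult lines go both ways; axes do not start at 0.

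With TMM scaling falling calls outnumbered rising ones among the 1000 most abundant genes, and with total count scaling among the 100 most abundant but not in the ranks from 101 to 1000. Tested genes were ranked by mean normalised count over the 8 fetal libraries, without correction for transcript length. Of the 100 most abundant, 33.0% fell and 5.00% rose, and of ranks 101 to 1000, 20.3% fell and 8.89% rose. Both directions were about equally frequent in ranks 1001 to 5000, with 10.4% falling and 11% rising. Beyond rank 5000, 4.95% fell and 8.26% rose. Called changes of at least 2-fold were few in every class. Of the 1000 most abundant genes 16 rose and 6 fell by that much. In ranks 1001 to 5000, 73 of 4000 genes rose and 16 fell so far, and beyond rank 5000, 255 of 7418 rose and 93 fell. Over the 100 most abundant genes the log2 ratio had a median of -0.30 in 271d, -0.43 in line 316d, -0.21 in 319d and -0.09 in line 320d, against a median of 0.012 for the fitted change of all tested genes.

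This excess of falling genes held under total count scaling for the 100 most abundant, of which 25 fell and 11 rose, but not for ranks 101 to 1000, where 103 fell and 136 rose. Among the 1000 most abundant genes together, 216 fell and 85 rose with TMM scaling and 128 fell and 147 rose with total counts. Without 316d, with TMM scaling, 138 of these fell and 91 rose. Without 319d the numbers were 63 and 45, and without 320d, where few genes were called at all, 13 and 20.

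**Figure D3:**
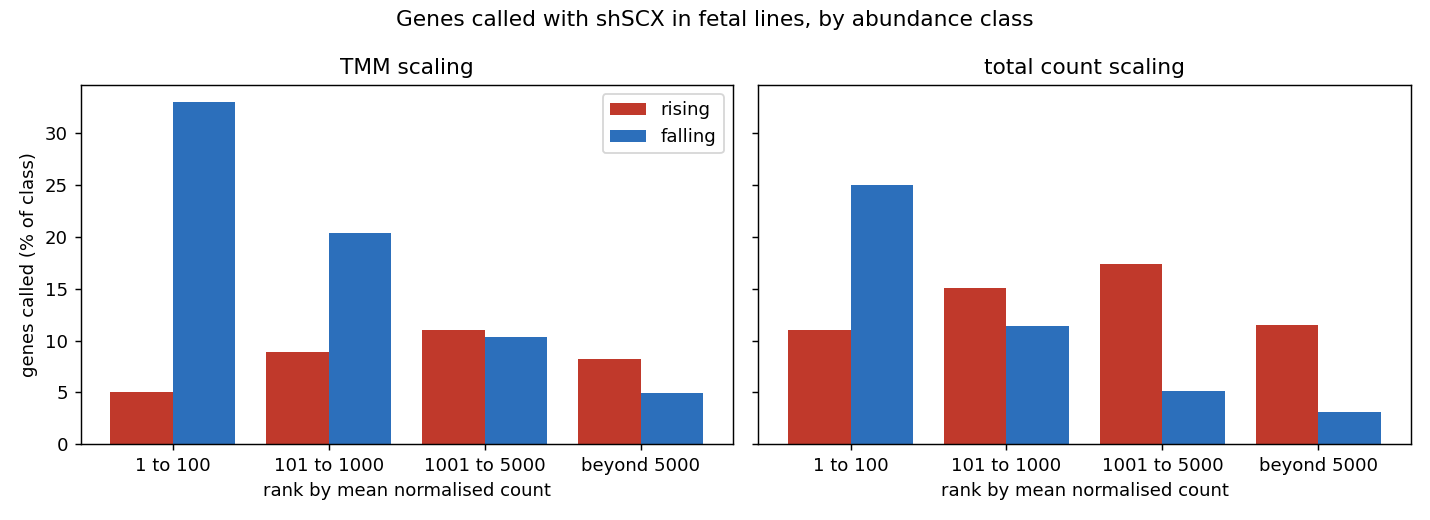
Percentage of genes called rising and falling with shSCX in fetal lines, in 4 classes by rank of mean normalised count, with TMM scaling (left) and total count scaling (right); bars start at 0. Falling genes outnumber rising ones in ranks 1 to 100 under both scalings (33 and 5 of 100 with TMM, 25 and 11 with total counts), and in ranks 101 to 1000 with TMM only.

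The calls were also described by the share of all counts they took. The 998 falling genes together took 21.8% of all counts with NT and 15.9% with shSCX in 271d, 26.3% and 18.1% in 316d, 23.9% and 19.4% in 319d, and 28.0% and 21.4% in line 320d. The 1140 rising genes took 6.60% and 12% in 271d, 5.02% and 9.84% in 316d, 5.64% and 9.15% in 319d, and 4.77% and 7.96% in line 320d. The share of the falling genes fell by 6.30 ± 1.49 percentage points and that of the rising genes rose by 4.23 ± 1.05 (SD, n = 4). The genes were chosen by their change in these same libraries, so their direction is given and only the amount is described. The balance of loss and gain turned on the scaling that chose the sets: with genes called under total count scaling the share of falling genes fell by 4.57 ± 0.879 percentage points and that of rising genes rose by 5.89 ± 1.37 (SD, n = 4). With genes called without 316d these changes were -5.25 ± 1.09 and 4.40 ± 0.964 over the same 4 lines (SD, n = 4).

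The 4 lines did not respond equally. Of all tested genes, 575 were at least 2-fold higher and 315 at least 2-fold lower with shSCX in 271d, 1436 and 353 in line 316d, 384 and 191 in 319d, and 572 and 244 in line 320d. Line 316d thus had the most genes past 2-fold upward, and its downward count was near that of 271d. Of the 1436 genes that were at least 2-fold higher in 316d, 915 were above their NT level in all 3 other lines, but 108 were also at least 2-fold higher there. For comparison, 5587 of all 12418 tested genes (45%) had the same sign in 4 of 4 lines, in either direction. Downward, 26 genes reached 2-fold in all 4 lines. Each of these counts compares single libraries and has no replicate check.

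To see whether a line followed the others, the 1000 genes with the smallest p in a fit of the other 3 lines were measured in the line left out, where 989 to 999 of them could be measured. Of these, 93.5% had the sign of the other lines in 271d, 96.0% in line 316d, 96.5% in 319d and 98.3% in line 320d. The median log2 ratio in that direction was 0.45 in 271d, 0.86 in line 316d, 0.62 in 319d and 0.76 in line 320d, or 0.67 ± 0.18 (SD, n = 4). Genes that rose elsewhere had a median log2 ratio of 0.64 in 271d, 1.04 in line 316d, 0.69 in 319d and 0.95 in line 320d. Those that fell elsewhere had medians of -0.35, -0.71, -0.53 and -0.55 in the same order. In these lists 271d had the lowest median in both directions and 316d the highest. Each line had its own list, however, and the lists differed in size of change. The median absolute log2 fold change in the other 3 lines was 0.68 for the list of 271d, 0.78 for 316d, 0.93 for 319d and 0.82 for 320d. With genes at adjusted p under 0.05 in the other 3 lines instead, the lists ran from 270 genes for 320d to 2220 for 271d, and the median in their direction was 0.33 in 271d, 0.72 in line 316d, 0.67 in 319d and 1.18 in line 320d. The highest value then belonged to 320d, with the shortest list, and the lowest again to 271d, with the longest. With 4 lines, 3 of them from late gestation, an effect of gestation day could not be tested.

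The responses of 319d and 320d were the most alike over genes. Across the 12418 genes, which are not independent replicates, the log2 ratios of 319d and 320d correlated at Pearson r = 0.62, those of 316d with 319d and 320d at 0.54 and 0.56, and those of 271d with the other lines at 0.44 to 0.54. Ratios of different lines share no library, but share the hairpins and the scaling.

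**Figure D4:**
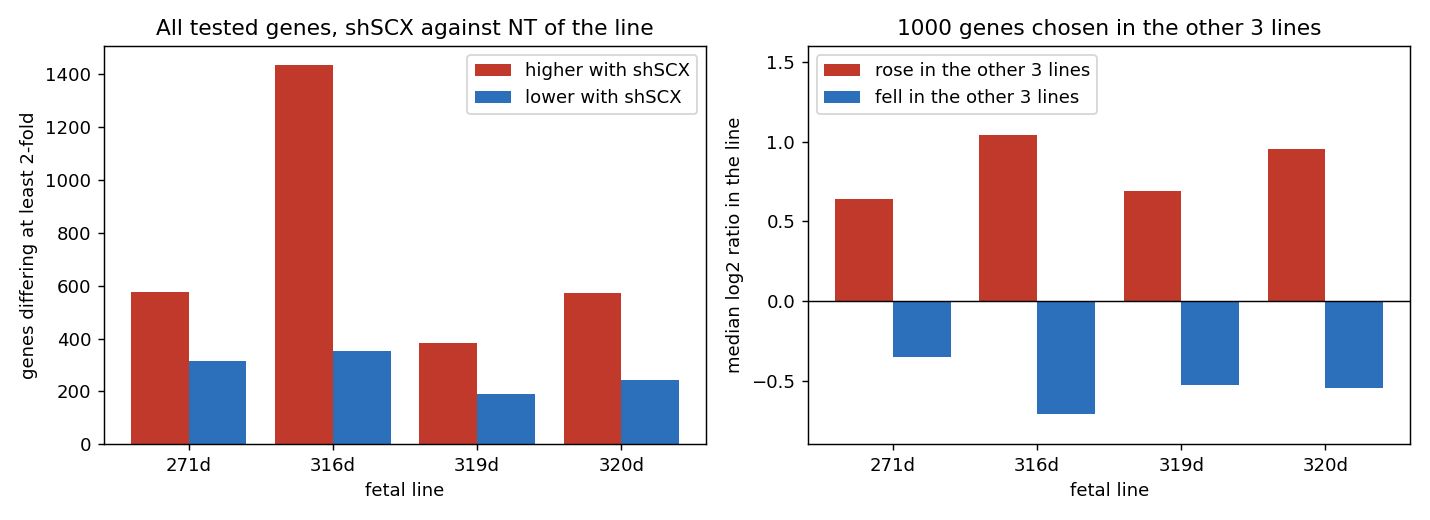
Left, the number of tested genes at least 2-fold higher or lower with shSCX than with NT in each fetal line; right, the median log2 ratio in each line of genes that rose or fell in the other 3 lines (1000 genes with the smallest p there). Line 316d has 1436 genes past 2-fold upward against 384 to 575 elsewhere, and all 4 lines move in the direction of the others, by 0.64 to 1.04 upward and -0.71 to -0.35 downward.

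Principal components of the fetal libraries on log2 CPM (counts scaled to a common library size) separated lines and hairpins on the same axes. Component 1 held 41.8% of the variance and moved in the same direction from NT to shSCX in every line. The move was 31.2 in 271d, 71.3 in line 316d, 32.1 in 319d and 37.8 in line 320d. On this axis the shSCX library of 320d (-19.7) was on the same side as the NT libraries of 319d (-18.7), 316d (-33.4) and 320d (-57.5), and the NT library of 271d (23.3) lay among the other shSCX libraries. Component 3, with 16.6% of the variance, moved by more even amounts, from 19.1 in 319d to 26 in 320d. Component 2, with 19.5%, separated 319d from the other lines and moved by 14.3 in 271d, 10.5 in line 316d, -6.50 in 319d and 3.00 in line 320d.

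**Figure D5:**
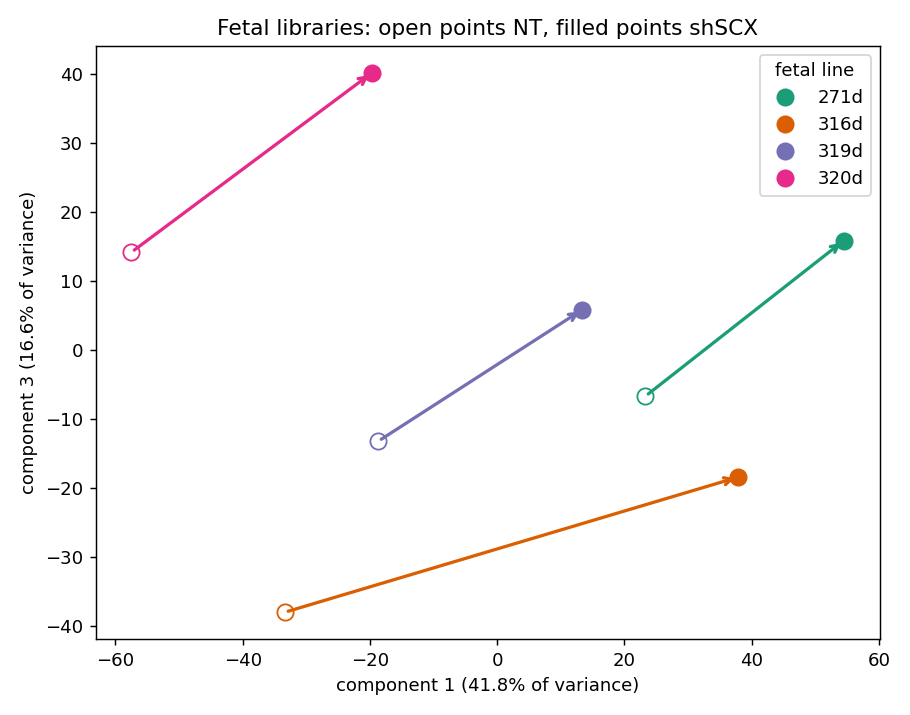
Fetal libraries on components 1 and 3 of log2 CPM (41.8% and 16.6% of the variance), with an arrow from the NT library (open) to the shSCX library (filled) of each line. Arrows point the same way in all lines on both axes, and that of 316d is the longest on component 1 (71.3 against 31.2 to 37.8).

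Lines were slightly more alike with shSCX than with NT, but this rested on 271d. The SD of log2 CPM over the 4 lines had a median over genes of 0.334 with NT and 0.289 with shSCX. The difference was -0.046, and between -0.089 and -0.035 without 316d, 319d or 320d, but 0.032 without 271d.

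For genes that were not called, the precision of the fit was as follows. The median half-width of the 95% interval of a log2 fold change was 0.30 over all tested genes. Of the 10280 genes not called, 8648 had an interval that lay within 2-fold in either direction, and 6048 had an interval within 1.5-fold. The remaining 1632 had intervals that reached past 2-fold, and for these a change of that size could not be detected or excluded at this depth and number of lines. Unadjusted p was under 0.05 for 4523 tested genes (edgeR quasi-likelihood test), against 2138 called. A gene that was not called is therefore not shown to be unchanged.

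In adult lines, which share no library with the fetal ones, 325 of 12513 genes (2.60%) changed in the same test. The 1123 rising fetal calls tested in adult lines had a median log2 fold change of 0.74 in fetal and 0.32 in adult lines, and per adult line the median was 0.41 in TB171012, 0.19 in TB180412, 0.34 in TB130911 and 0.30 in S. For the 991 falling calls the medians were -0.50 and -0.23, with -0.31, -0.15, -0.26 and -0.22 in the same adult lines. The fetal medians are raised because these lines chose the genes, so the sizes of the 2 stages are not compared on this list.

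The difference between the fetal and the adult effect was itself tested as an interaction in all 16 libraries. With edgeR 0 of 12888 genes passed (0.00%, lowest adjusted p = 0.307), with 2006 genes at unadjusted p under 0.05. With limma voom 0 passed and with DESeq2 38. The named genes were picked for large changes in fetal lines, which raises their fetal effects, so their stage differences are given as descriptions with no test. Among them, ENSECAG00000023733 had fetal log2 ratios of 3.32 to 5.09 and adult ones of 1.52 to 3.74, a fetal minus adult difference of 1.67 (SE 0.47). ENSECAG00000000207, which fell in 4 of 4 fetal lines, had adult log2 ratios of -0.35 in TB171012, 1.54 in TB180412, -2.26 in TB130911 and -2.47 in S. It thus fell in every adult line but TB180412, where it went from 34.4 to 103.5 normalised counts. Its log2 fold change over adult lines was -1.06 (SE 0.59, edgeR adjusted p = 0.407). Its fetal minus adult difference was -1.56 (SE 0.88). ENSECAG00000000750, ENSECAG00000023733 and ENSECAG00000023039 were called in both stages, with adult log2 fold changes of 4.67, 2.71 and -2.79. The fetal minus adult difference was 0.98 (SE 0.77) for ENSECAG00000000750. For ENSECAG00000023039 it was 0.74 (SE 0.74), a smaller fall in fetal lines (-2.04) than in adult lines.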

How the data were processed

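Estimated counts per gene were deposited by the authors in 1 table for fetal and 1 for adult libraries, over the same 21689 identifiers. The submitters' processing notes name FastQC, Salmon and R 3.5.2. Which transcripts and genome build were used, and how transcripts were summed to genes, is not given in the sources used here. Salmon divides reads among similar transcripts, so near-identical gene copies are uncertain. Between 94.6% and 95.8% of values in a library were whole within 0.01, and all were rounded before testing.

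Counts were analysed in R 4.3.3 with edgeR 4.0.16 (filterByExpr by group, TMM scaling, quasi-likelihood test, Benjamini-Hochberg adjustment, threshold 0.05), within fetal libraries and with the line as a block. The pairing comes from the line named in the titles. Deviations from group means correlated within pairs at r = 0.40 to 0.78. By this measure the best match of each shSCX library was its own NT library in 4 of 4 fetal lines. By distance without removal of group means this did not hold for 316d, whose shSCX library lay nearer to the NT library of 271d (0.62) than to its own (0.76). No fetal libraries that share a hairpin agreed within sampling noise (lowest chi-square per degree of freedom 43.3), so none was treated as a repeat deposit of another. The series calls the lines independent, and each was sequenced once per hairpin. With the line as a block, p-values therefore set a change against how much the change from NT to shSCX varied between lines. Differences in level between lines are taken out by the block. For normalised counts, libraries were scaled by TMM to their geometric mean size. Log2 ratios used a prior count of 2. Standard errors are the log2 fold change divided by the square root of F. The fit was first run on simulated counts in which a planted change was of equal size in every line. That run therefore does not cover unequal responses of lines such as those described above.

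A pair of adult columns with the prefix TB and no number was assigned to TB171012, because the other adult titles were taken. The naming rule took 2 genes per direction where no symbols could be had, and 17 gene lists and the cell type markers could not be applied. The members, lists and tests were chosen with earlier results of these data known. Alternatives used DESeq2 1.42.0 and limma 3.58.1 (voom), other filters and scalings, all 16 libraries, no block, and each line left out.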

Additional observations from a re-analysis of the deposited data

Results flagged for a closer look

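Values that stood far from the other 3 lines were looked for in 38 sets of values, 1 value per fetal line, by Dixon's ratio at the 95% level, which chance passes in about 1 of 20 sets. In 2 of the 38 sets a line passed this level, which is about as many as chance gives. The depth of the shSCX library exceeded that of the NT library by 2924329 counts in 271d, while in the other 3 fetal lines the shSCX library was the shallower one (ratio 0.901). The move from NT to shSCX along component 1 was 71.3 in 316d, against 31.2 to 37.8 in the other lines (ratio 0.835).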

How the results depend on the processing

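Fetal calls numbered 2138, and between 2110 and 2778 with the DESeq2 Wald test, limma voom, total count scaling, either other filter or all 16 libraries in the fit. They numbered 58 with no replicate block, and from 270 (without 320d) to 2221 (without 271d) with a line left out. The blocked fit is the one reported, because both libraries of a pair come from the same line. Total count scaling gave 566 falling calls in place of 998, and among the 1000 most abundant genes 128 falling and 147 rising in place of 216 and 85. With a line left out those numbers ran from 13 to 235 and from 20 to 91. The named genes gave 44 values under the alternatives, of which 38 kept their call and 6 lost it with the direction unchanged. Of the 6, 4 came from the fit with no replicate block (edgeR adjusted p from 0.146 to 0.515) and 2 were ENSECAG00000023039 without 319d and without 320d.

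Interaction calls were 0 with edgeR, with limma voom, with no replicate block and without any line, and 38 with DESeq2. Adult calls were 325, then 1 with no replicate block and 27 (without S) to 237 with a line left out. The mean response of a line to genes called in the other 3 was 0.73 on the log2 scale, and 0.42 to 0.78 under the alternatives. The difference in spread between shSCX and NT lines was -0.046, with -0.089 to 0.032 when a line was left out and a reversed sign without 271d. The abundance counts without each line, the lists of 1000 genes, the shares of counts under other calls, and the call sizes and library measures without 316d were added after seeing the data. The median half-width of the 95% interval was 0.40 on the log2 scale for genes beyond abundance rank 5000 and 0.21 to 0.26 in the 3 classes above.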
